A study of Mus musculus with 7 samples.

Results

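The genes described here are a listed set of 36 that hepatic stellate cells and other matrix-producing cells of the liver are known for: collagens, proteoglycans, elastic fibre and matricellular proteins, contractile genes, stellate cell identity genes, and secreted regulators. A member was measured where the array carried a probe whose only gene symbol, current or older, was that of the member. This held for 34 of the 36, among 19057 genes with such a probe, and levels of Col6a3 and Fbn1 are not analysed here. A total of 69 probes belonged to the 34 members, 17 members had more than 1 probe, and each member was summarised by its probe with the highest mean intensity over all arrays.

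The set was measured in liver RNA of 7 male C57BL/6J mice, an inbred laboratory strain, at postnatal day 28. The ethanol group held 3 animals exposed in utero, whose dams had 10% (v/v) ethanol to drink freely between fertilization and gestational day 8.5. The control group held 4 animals, and no genetic change is given for either group. The study asked which liver genes differ in offspring after exposure to alcohol before birth, and each RNA sample was run on 1 Illumina mouse BeadArray, on which short probes fixed to beads light up in proportion to the labelled RNA they bind. The labels do not say which animals shared a litter, so p-values measure only the spread between these samples.

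Hepatic stellate cells lie in the space between hepatocytes and the sinusoidal endothelium and store most of the body's vitamin A as retinyl esters. After injury they can turn into contractile myofibroblasts that secrete fibrillar collagens, a change driven in large part by transforming growth factor beta and platelet-derived growth factor. Portal fibroblasts and vascular smooth muscle cells share many of these genes, and a healthy liver holds few cells of any of these types.

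Levels are deposited intensities, linear values for 1 probe that do not compare with those of another probe. A probe was above background on an array where its intensity exceeded 3 times the noise, taken from the probes below 0 on that array, which put the limit between 21.3 and 26.9. Between 13951 and 15068 probes passed it per array. Differences are log2 ethanol minus control after background correction with an offset of 50 and quantile normalization, a scale that understates the change of dim probes. They were tested with limma, and p-values were adjusted with the Benjamini-Hochberg method over all 23829 probes tested. Pairs of ethanol arrays correlated at 0.988 to 0.990 over all tested probes, pairs of control arrays at 0.987 to 0.995, and pairs across the groups at 0.981 to 0.992.

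No member passed an adjusted p of 0.05. Over the 12749 genes taken by their brightest probe, 4 did (0.0314%). At an unadjusted p under 0.05, Bgn and Gas6 were higher in ethanol livers, 2 of 34 members, where 4.22% of all genes were. At the same threshold, 5 members were lower in ethanol livers, namely Col3a1, Dcn, Fbln2, Lrat and Colec10, where 4.90% of all genes were. Leaving out control 1, control 2 or ethanol 3 gave 3 lower members, and leaving out control 4, ethanol 1 or ethanol 3 gave 1 higher member. After normalization, the groups did not overlap for 2 members that were higher in ethanol livers, Gas6 and Col6a2, against 4.16% of all genes. They did not overlap for 5 that were lower, Col1a2, Col3a1, Fbln2, Sparc and Colec10, against 4.80% of all genes. In total, 11 members had a positive difference and 23 a negative one, with a median of -0.09. Of all 12749 genes, 6320 were positive and 6429 negative, with a median of -0.0013.

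The brightest probe was above background on all 7 arrays for 24 members, on 1 to 6 arrays for 7, and on none for Col5a2, Col6a2 and Pdgfrb. Over the 29 members above background on at least 3 arrays, 9 differences were positive and 20 negative, with a median of -0.11. In whole liver, fewer cells of a type and less RNA per cell cannot be told apart. The plot of levels by array shows how these members lay in each animal.

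**Figure D1:**
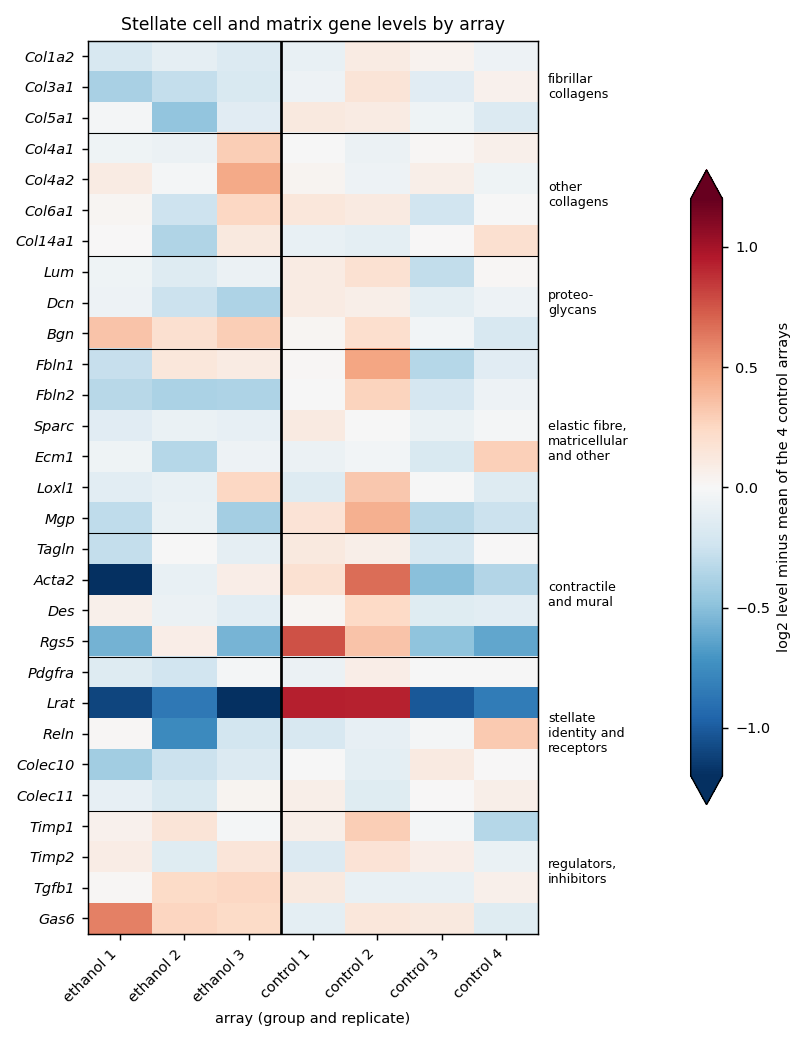
Log2 level of each of 29 members (rows, grouped by role) on each array (columns) minus the mean of the 4 control arrays, red for higher and blue for lower, with ethanol arrays left of control arrays. Lrat, Rgs5 and Acta2 have the deepest colours, and controls 1 and 2 stand apart from controls 3 and 4 for all 3.

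Lrat, which makes the retinyl esters that stellate cells store, had the largest difference of the set. Its intensities were 38.0, 58.5 and 7.18 in ethanol livers, against 366, 379, 45.2 and 60.3 in control livers. The groups overlapped, because controls 3 and 4 lay in the range of ethanol 1 and 2 or close to it, while controls 1 and 2 were far above every other animal. Its mean was 34.6 ± 25.8 in ethanol livers and 213 ± 185 in control livers (SD, n = 3 and 4), and the log2 difference was -1.19 ± 0.46 (SE; 95% interval -2.20 to -0.18; limma adjusted p = 0.518). Without control 1 the difference was -0.88, and without control 3 it was -1.53.

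The other identity genes differed less. Reln, a secreted glycoprotein made by stellate cells, had 1764, 1025 and 1456 in ethanol livers, against 1489.9, 1682, 1736 and 2186 in control livers. The groups overlapped, and ethanol 2 was the lowest of the 7 animals. Its log2 difference was -0.32 ± 0.18 (limma adjusted p = 0.642), and -0.10 without ethanol 2.

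Colec10, a collectin of the complement lectin pathway, had 56.8, 72.9 and 79.4 in ethanol livers, against 99.6, 88.8, 115 and 101 in control livers. Every ethanol liver was below every control liver. The means were 69.7 ± 11.6 in ethanol livers and 101 ± 10.7 in control livers, a log2 difference of -0.28 ± 0.09 (95% interval -0.49 to -0.07; limma adjusted p = 0.469). Colec11, its partner in the same complex, had 794, 768 and 862 in ethanol livers, against 893, 791, 876 and 906 in control livers. These overlapped, with a log2 difference of -0.09 ± 0.09 (limma adjusted p = 0.838).

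The platelet-derived growth factor receptors were dim. Pdgfra averaged 65.2 ± 8.81 in ethanol livers and 80.2 ± 6.93 in control livers, a log2 difference of -0.14 ± 0.09. Pdgfrb, a receptor by which stellate cells and pericytes respond to the growth factor, had 13.3, 7.001 and 18.8 in ethanol livers, against 16.7, 14.8, 5.78 and 18.3 in control livers. No liver reached the limit for Pdgfrb, so no fold is given. Hhip, which binds hedgehog ligands, was above background in 0 of 3 ethanol livers and 1 of 4 control livers, also without a fold. The 7 identity genes and receptors were all negative (median -0.14), where 6429 of 12749 genes were. This count includes Pdgfrb and Hhip, whose signs rest on values near or below the limit. Of the 7, Lrat and Colec10 had an unadjusted p under 0.05. Hgf and Ngfr, stellate cell markers outside the set that were above background on every array, differed by 0.10 and -0.01.

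Among contractile and mural cell genes, Acta2 and Rgs5 varied widely within both groups, and Des and Tagln less so. Acta2, the smooth muscle actin that marks activated stellate cells and vessel walls, had 558, 1325 and 1442 in ethanol livers, against 1545, 2299.7, 967 and 1066 in control livers. The groups overlapped and ethanol 1 was the lowest. The log2 difference was -0.41 ± 0.32 (95% interval -1.12 to 0.31; limma adjusted p = 0.770), and it was -0.01 without ethanol 1 and -0.65 without ethanol 3. The other 3 tested probes of Acta2 gave -0.34, -0.03 and -0.06.

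Rgs5, a regulator of G protein signalling that marks pericytes, had 35.03, 96.8 and 36.1 in ethanol livers, against 195, 129, 42.4 and 31.1 in control livers. The lowest and the highest animals were both controls. Its log2 difference was -0.35 ± 0.30 (95% interval -1.02 to 0.32), and -0.09 without control 1. Tagln, an actin-binding protein of smooth muscle, had 11.9, 30.5 and 22.9 in ethanol livers, against 38.5, 35.6, 17.3 and 30.0 in control livers, with a log2 difference of -0.13 ± 0.10. In ethanol livers 1 of 3 arrays exceeded the limit and in control livers 3 of 4, and the groups overlapped. Des, the intermediate filament desmin, had 72.0, 60.3 and 54.3 in ethanol livers, against 69.6, 93.1, 54.1 and 55.2 in control livers, which overlapped almost entirely (log2 difference -0.04 ± 0.11). The 4 contractile genes were all negative (median -0.24), where 6429 of 12749 genes were, and none had an unadjusted p under 0.05. This count includes Des, which was 0.04 without control 2, and Tagln, whose values lay near the limit.

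**Figure D2:**
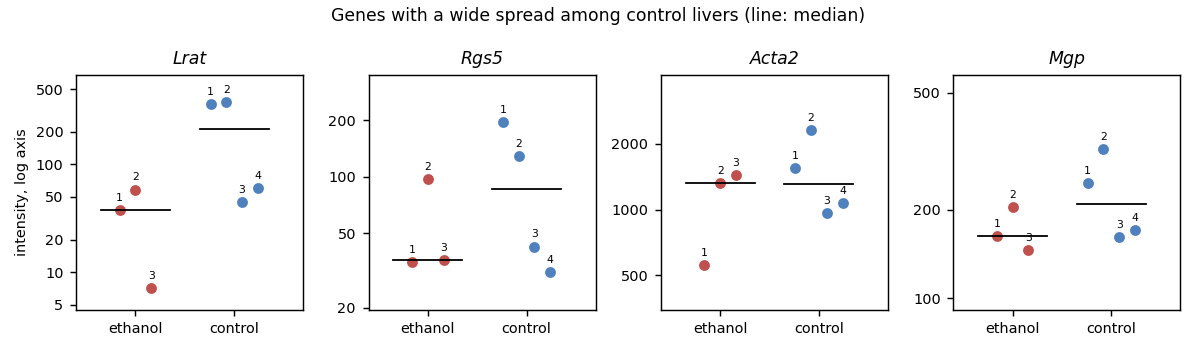
Deposited intensity (log axis) of Lrat, Rgs5, Acta2 and Mgp on each array, ethanol left of control, with the replicate number beside each point and a line at the median of the group. Controls 1 and 2 lie above controls 3 and 4 in all 4 panels, and the ethanol and control ranges overlap in each.

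Some of these genes also spread widely among control livers. Over the 4 controls, the log2 level of Lrat spanned 1.95, and 0.227% of the 7930 genes above background on every control array spanned more. The span was 1.39 for Rgs5 (0.782% of genes wider), 1.17 for Acta2 (1.29%), whose ethanol livers spanned as much as 1.29, 0.81 for Fbln1 (3.83%) and 0.75 for Mgp (4.91%). In deposited intensity, the highest control was 8.38 times the lowest for Lrat, 6.27 times for Rgs5 and 2.38 times for Acta2. Among the 26 members above background on every control array, controls 1 and 2 were the highest pair of the 7 arrays for 9 (34.6%). These were Col5a1, Lum, Dcn, Fbln2, Sparc, Acta2, Lrat, Mgp and Rgs5. This filter did not ask for signal in ethanol livers. Of these 9, Fbln2 was above background on no ethanol array and Lrat on 2 of 3. The same pair was highest for 954 of 7930 genes (12.0%); this pair was singled out after the values were seen, so it has no test.

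The promoters of the 3 members with the widest control range are shown because their levels stood together on controls 1 and 2. Each is the 250 bases before the start site, from RefSeq in build GRCm38.p6, written 5′ to 3′ on the strand of the gene. Capitals mark matches, on either strand, to the CCAAT box, to the Sp1-type GC box GGGCGG or to the E-box CAGCTG. Lrat lies at chr3:82903975-82904224 on the minus strand, Rgs5 at chr1:169655251-169655500 on the plus strand and Acta2 at chr19:34255374-34255623 on the minus strand.
Lrat: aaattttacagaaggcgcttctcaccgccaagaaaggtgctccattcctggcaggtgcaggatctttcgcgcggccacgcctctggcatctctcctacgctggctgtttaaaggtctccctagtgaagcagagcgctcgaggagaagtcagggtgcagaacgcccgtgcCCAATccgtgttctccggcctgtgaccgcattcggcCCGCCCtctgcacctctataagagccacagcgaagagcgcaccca
Rgs5: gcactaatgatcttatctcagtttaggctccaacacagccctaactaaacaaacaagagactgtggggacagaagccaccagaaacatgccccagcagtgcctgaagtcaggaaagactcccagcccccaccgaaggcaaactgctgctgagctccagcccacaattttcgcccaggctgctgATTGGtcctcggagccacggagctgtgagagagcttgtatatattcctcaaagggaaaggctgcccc
Acta2: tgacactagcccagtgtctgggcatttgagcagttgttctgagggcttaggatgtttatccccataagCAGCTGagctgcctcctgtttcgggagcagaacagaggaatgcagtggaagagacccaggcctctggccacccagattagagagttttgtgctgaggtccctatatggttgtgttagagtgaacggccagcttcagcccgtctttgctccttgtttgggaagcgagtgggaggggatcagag

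Lrat held CCAAT starting 81 bases before the start site and GGGCGG on the opposite strand 45 bases before it. Rgs5 held CCAAT on the opposite strand 67 bases before its start, and Acta2 held CAGCTG 182 bases before its start. Promoters were found for 26 of the 36 listed members, namely 24 of those measured on the arrays and also Col6a3 and Fbn1. Within 250 bases, CCAAT was in 7 of them, against 33.8% of 32851 mouse promoters of the same length, and GGGCGG was in 16, against 32.7%. Each member was taken by 1 promoter, while the promoters behind these shares were not reduced to 1 per gene or to genes on the arrays. CAGCTG was in 6 (13% of all promoters) and TATAAA in 2 (12.4%). The strict CArG box, bound by serum response factor, was in 0 (1.47%). With at most 1 of its 10 letters changed, a setting chosen after the values were seen, it was in 8, against 18.6% of all promoters. The Acta2 sequence printed above held 2 such matches, starting 84 and 34 bases before the start site. The Lrat sequence also held such a match, starting 223 bases before its start site, and the Rgs5 sequence held none. The other members with such a match were Col1a2, Col6a3, Fbln1, Fbln2, Colec11 and Ecm1. Acta2 is a known target of serum response factor. The capitalised matches do not overlap each other, and a match describes letters only.

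Among the fibrillar collagens, the load-bearing rods of the matrix, Col3a1 differed the most. Col3a1 had 67.4, 78.7 and 88.0 in ethanol livers, against 103, 132, 95.02 and 116 in control livers. Every ethanol liver was below every control liver. The means were 78.1 ± 10.3 in ethanol livers and 112 ± 16.2 in control livers, a log2 difference of -0.29 ± 0.10 (95% interval -0.50 to -0.07; limma adjusted p = 0.472). Leaving out any 1 array gave -0.34 to -0.24. A second tested Col3a1 probe was above background on no array.

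Col1a2, a chain of type I collagen, had 16.2, 21.0 and 18.0 in ethanol livers, against 22.3, 35.8, 31.6 and 24.4 in control livers. The groups did not overlap, but no ethanol liver was above background, while 3 of 4 control livers were. Its log2 difference was -0.15 ± 0.08, with an interval of -0.34 to 0.03 that spans both signs (limma adjusted p = 0.647). On the log2 scale with the offset, the point bound was 1.03-fold higher in control livers. Such a bound sets the mean of the bright group against the lowest measurable level of the dim group. It has no interval and does not establish a minimum difference. For Col1a2 the mean also includes control 4, which was below its limit. Col1a1, the partner chain, had 24.6, 13.1 and 29.4 in ethanol livers, against 18.6, 24.6, 18.8 and 30.1 in control livers. These overlapped around the limit of detection, and the log2 difference was -0.01 ± 0.09. Col5a1, which sets fibril diameter, averaged 304 ± 57.4 in ethanol livers and 362 ± 37.0 in control livers, a log2 difference of -0.21 ± 0.12. Col5a2 was above background on no array.

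Of the basement membrane and other collagens, none had an unadjusted p under 0.05. Col4a1 and Col4a2, the main chains of type IV collagen, start 21 bases apart on chromosome 8 and are read in opposite directions. Col4a1 averaged 831 ± 126 in ethanol livers and 796 ± 28.9 in control livers (log2 difference 0.06 ± 0.10), and Col4a2 averaged 509 ± 91.6 in ethanol livers and 441 ± 22.9 in control livers (0.18 ± 0.11). Ethanol 3 was the highest of the 7 animals for both. Col6a1, a beaded-filament collagen, averaged 217 ± 44.9 in ethanol livers and 214 ± 30.3 in control livers (0.01 ± 0.13), and its second probe gave -0.08 ± 0.15. Col14a1, which binds the fibril surface, averaged 209 ± 43.2 in ethanol livers and 225 ± 29.5 in control livers (-0.08 ± 0.12), and its second probe gave -0.08 as well.

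Col6a2 had 22.6, 19.1 and 22.1 in ethanol livers, against 11.8, 12.1, 13.3 and 7.94 in control livers. The groups did not overlap, but all 7 values were at or under the noise limit of their array, so no fold is given. Without Col6a2, Gas6 was the only member higher in every ethanol liver after normalization.

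The proteoglycans split in direction. Dcn, decorin, which binds collagen and transforming growth factor beta, had 6197, 5704 and 4902 in ethanol livers, against 6610.5, 6963, 5878 and 6183 in control livers. The groups overlapped only through ethanol 1, which exceeded controls 3 and 4. Its means were 5601 ± 654 in ethanol livers and 6409 ± 476 in control livers, a log2 difference of -0.23 ± 0.10 (95% interval -0.45 to -0.01; limma adjusted p = 0.556). A second Dcn probe gave -0.29 ± 0.11 (limma adjusted p = 0.500) and another gave 0.02, while the last was below background on every array.

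Bgn, biglycan, a close relative of decorin, had 2725, 2558 and 2561 in ethanol livers, against 2118, 2540.3, 2127 and 1855 in control livers. The deposited intensities did not overlap, by a narrow gap to control 2, and after normalization they did. The means were 2615 ± 95.2 in ethanol livers and 2160.2 ± 283 in control livers, a log2 difference of 0.28 ± 0.10 (95% interval 0.05 to 0.50; limma adjusted p = 0.501). Lum, lumican, which regulates fibril spacing, averaged 267 ± 12.2 in ethanol livers and 292 ± 47.7 in control livers, and both of its probes gave -0.09.

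**Figure D3:**
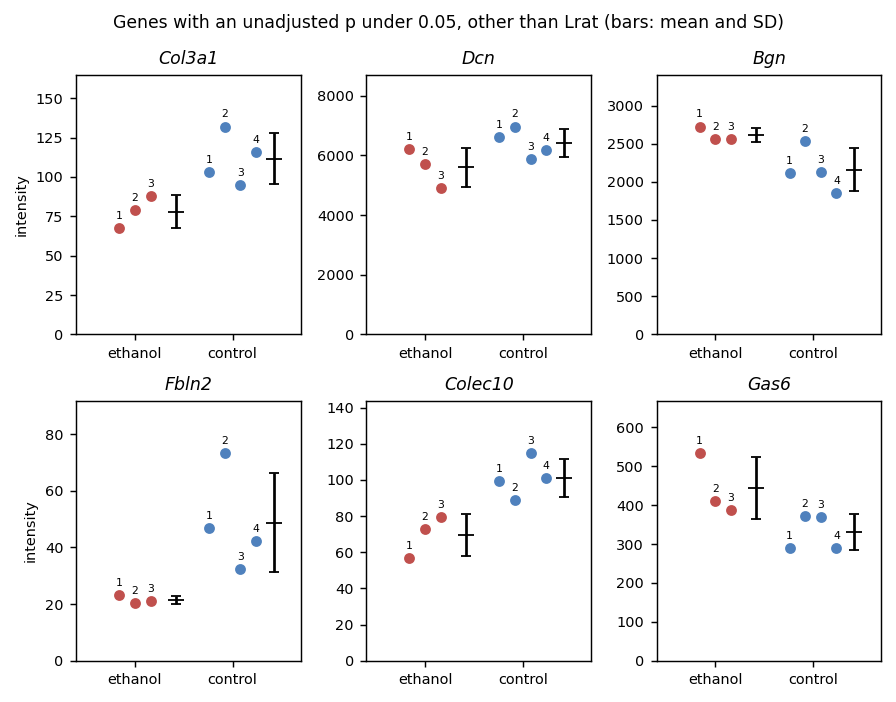
Deposited intensity on each array for the 6 members other than Lrat with an unadjusted p under 0.05, on axes starting at 0, ethanol left of control, with the replicate number beside each point and bars for the mean and SD (n = 3 and 4). Col3a1, Fbln2 and Colec10 are lower in every ethanol liver, Gas6 and Bgn are higher in every ethanol liver, and Dcn overlaps through ethanol 1.

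Fbln2, fibulin 2, an elastic fibre protein also made by portal fibroblasts, had the smallest adjusted p among the brightest probes of the members. It had 23.1, 20.3 and 21.0 in ethanol livers, against 47.0, 73.4, 32.5 and 42.2 in control livers. No ethanol liver was above background, all 4 control livers were, and the groups did not overlap. Its log2 difference was -0.36 ± 0.11, with an interval of -0.60 to -0.12 (limma adjusted p = 0.436). The point bound, as defined for Col1a2, was 1.23-fold higher in control livers. A second probe did not overlap either, but only 1 control liver was above background there. Fbln1, fibulin 1, averaged 67.4 ± 20.7 in ethanol livers and 71.8 ± 36.3 in control livers, with a log2 difference of -0.01 ± 0.17.

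Sparc, a collagen-binding matricellular protein, had 1777, 1925 and 1781 in ethanol livers, against 2092, 2014, 1884 and 1917 in control livers. Ethanol 2 exceeded controls 3 and 4 in deposited intensity, and after normalization the groups did not overlap. The brightest probe gave a log2 difference of -0.11 ± 0.08 (limma adjusted p = 0.755), and a second probe gave -0.12 ± 0.09. The dimmest of its probes had 236, 222 and 249.7 in ethanol livers, against 332, 289, 322 and 324 in control livers, with no overlap. It gave -0.34 ± 0.09 (95% interval -0.53 to -0.14; limma adjusted p = 0.392), so the probes of Sparc shared a direction and differed in size.

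Mgp, matrix Gla protein, an inhibitor of calcification, had 163, 205 and 146 in ethanol livers, against 247, 321, 161 and 170.1 in control livers. Controls 1 and 2 were the highest animals again, and the log2 difference was -0.26 ± 0.17 (limma adjusted p = 0.710). Ecm1, extracellular matrix protein 1, which keeps transforming growth factor beta latent in mouse liver, had 1449, 1208 and 1414 in ethanol livers, against 1394, 1515, 1355 and 1842 in control livers. The groups overlapped (log2 difference -0.15 ± 0.12), and a second, dimmer probe gave 0.19, the opposite sign. Loxl1, an enzyme that cross-links elastin, averaged 128 ± 28.4 in ethanol livers and 128 ± 34.0 in control livers (0.01 ± 0.14).

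All 4 secreted regulators had positive differences (median 0.11), where 6320 of 12749 genes did. For 1 of them, Gas6, the unadjusted p was under 0.05. The count includes Timp1 and Timp2, whose signs changed when 1 array was left out. Gas6, a ligand of the TAM receptor tyrosine kinases made by stellate cells and macrophages, had 534, 410.1 and 388 in ethanol livers, against 291, 373, 368 and 291 in control livers. Every ethanol liver was above every control liver. The means were 444 ± 79.0 in ethanol livers and 331 ± 46.1 in control livers, a log2 difference of 0.36 ± 0.12 (95% interval 0.10 to 0.62; limma adjusted p = 0.465). Without ethanol 1 the difference was 0.24.

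Tgfb1, the ligand that drives collagen synthesis, had 45.7, 66.1 and 64.9 in ethanol livers, against 55.6, 38.5, 38.8 and 49.99 in control livers. The groups overlapped, with a log2 difference of 0.16 ± 0.10 (limma adjusted p = 0.665). Timp1, an inhibitor of metalloproteinases induced in activated stellate cells, had 23.8, 31.4 and 18.9 in ethanol livers, against 24.6, 41.7, 19.0 and 1.61 in control livers. Here 1 of 3 ethanol livers and 2 of 4 control livers exceeded the limit, and the difference was 0.06 ± 0.13. Without control 4 the difference was -0.05, and a second tested Timp1 probe also gave -0.05. Timp2, its constitutive relative, had 183, 146 and 191 in ethanol livers, against 139, 199.5, 182 and 155 in control livers, which overlapped (0.03 ± 0.11).

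**Figure D4:**
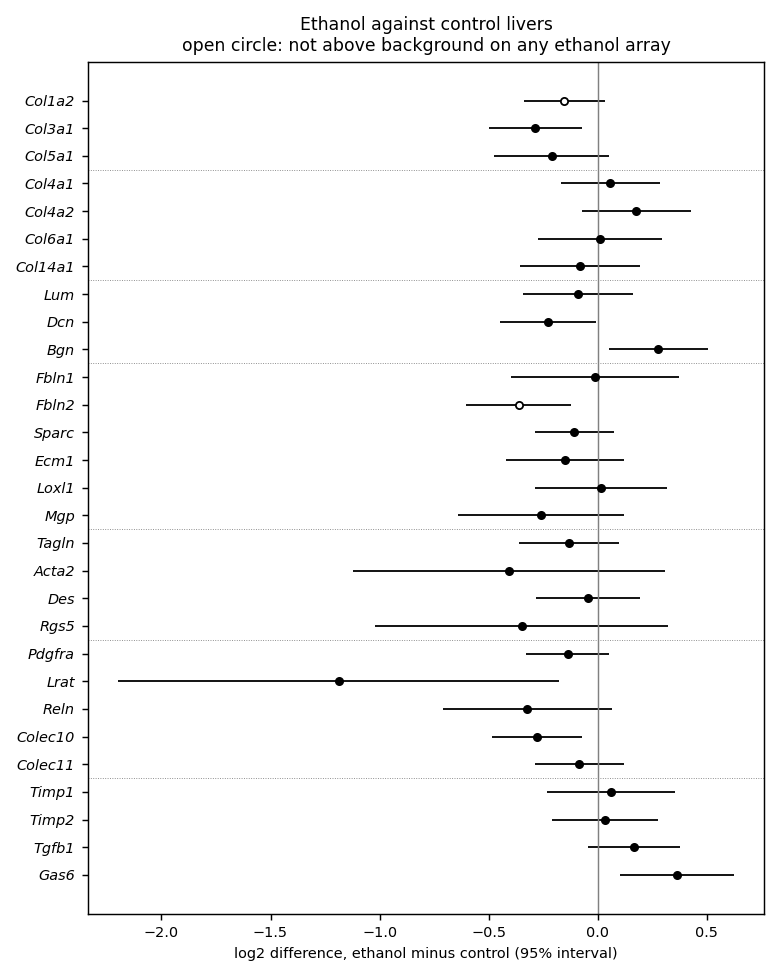
Log2 difference, ethanol minus control, for the 29 members above background on at least 3 arrays, by their brightest probe, with lines at the 95% interval, dotted lines between roles and open circles where no ethanol array was above background. The intervals of Lrat, Col3a1, Colec10, Dcn and Fbln2 lie below 0 and those of Gas6 and Bgn above it, before adjustment for the number of probes tested.

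Other genes of the same pathways, on lists of genes outside the set, gave no gene past the adjusted threshold either. In collagen folding and cross-linking, 2 of 15 tested genes were higher at an unadjusted p under 0.05 and 0 lower (median 0.05). Of all genes, 4.22% were higher and 4.90% lower at that threshold, and the counts of the other lists stand against the same shares. P3h1, a collagen prolyl hydroxylase, averaged 81.9 ± 10.3 in ethanol livers and 58.8 ± 11.1 in control livers (0.25). Bmp1, which removes collagen propeptides, averaged 2982 ± 195 in ethanol livers and 2540 ± 205 in control livers (0.21), and neither gene overlapped between groups. Lox, which cross-links collagen, was above background in 2 of 3 ethanol livers and 0 of 4 control livers, but the groups overlapped and the interval of its log2 difference was -0.07 to 0.34.

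Of 23 other matrix components tested, 4 were higher and 0 lower (median 0.04). Eln, elastin, averaged 196 ± 31.9 in ethanol livers and 145 ± 32.5 in control livers (0.32). Vtn, vitronectin, a plasma protein made by hepatocytes, differed by 0.22, and Ogn, osteoglycin, by 0.21. Among 12 matrix-degrading enzymes and their inhibitors, 0 were higher and 1 lower (median -0.06). That was Ctsk, the collagen-degrading cathepsin K, with 27.5 ± 6.73 in ethanol livers and 56.4 ± 12.0 in control livers, without overlap (-0.36; limma adjusted p = 0.392). Reck differed by 0.14 and Mmp19 by -0.14.

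Of 17 genes of the transforming growth factor beta pathway, 0 were higher and 0 lower at that threshold (median -0.11). The largest difference on this list was that of Ccn2, at -0.68. It rests on ethanol 2, without which it was 0.13. Ltbp1, which binds the latent ligand, was above background in 0 of 3 ethanol livers and 2 of 4 control livers, and the receptors Tgfbr3 and Tgfbr1 differed by -0.17 and 0.22. Of 8 platelet-derived growth factor and hedgehog genes, 1 was higher and 0 lower (median 0.01). Pdgfa, a ligand of Pdgfra, averaged 417 ± 93.3 in ethanol livers and 308 ± 45.9 in control livers (0.35; limma adjusted p = 0.543), Ihh was above background in 1 of 3 ethanol livers and 0 of 4 control livers, and Smo differed by -0.12.

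Neither the 13 matrix receptors (median 0.04) nor the 11 vitamin A genes (median -0.02) held a gene with an unadjusted p under 0.05. The smallest p among receptors belonged to Itga5 (0.23), Itgb5 (0.12) and Sdc2 (-0.11), and among vitamin A genes to the retinoic acid hydroxylase Cyp26a1 (0.57), the retinaldehyde dehydrogenase Aldh1a1 (0.38) and Bco1 (-0.16), which cleaves beta-carotene. Cyp26a1 rests on ethanol 2, without which its difference was 0.14, and Aldh1a1 was 0.19 without ethanol 3.

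**Figure D5:**
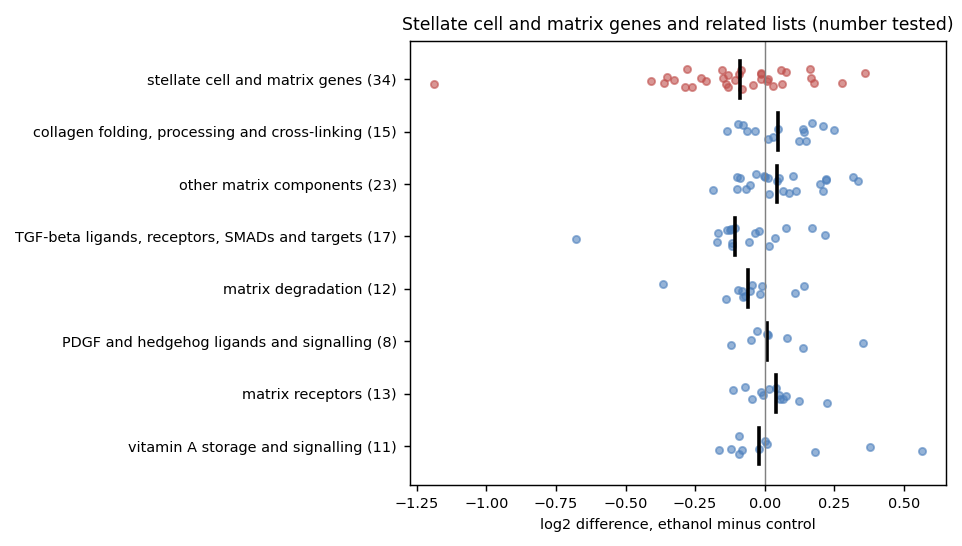
Log2 difference, ethanol minus control, of each tested gene (points), for the 34 members and for 7 lists of other genes of the same pathways, with the median of each as a bar. The median is -0.09 for the members and lies between -0.11 and 0.05 for the other lists; Lrat is the point farthest to the left.

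Markers of the cells that could carry these genes gave the following sums over probes above background on at least 3 arrays. The sums are of deposited intensities, without the normalization used for the differences. The stellate cell list, 8 of whose 15 genes are members, summed to 3300 to 4250 in ethanol livers and 4261 to 5245 in control livers over 8 of its 15 genes, apart by a narrow gap. Reln, Ecm1 and Colec11 made up 85.2 to 94.3% of that sum, so it mostly restates the values of these 3 members and is no separate measure of cell number. Of the genes on the stellate cell list, Pdgfrb, Lhx2, Bambi, Gfap and Hand2 were above background on no array. Portal fibroblast markers, 4 of 8, summed to 313 to 418 in ethanol livers and 266 to 400 in control livers. Vascular smooth muscle markers, 3 of 7, summed to 1599 to 1998 in ethanol livers and 1225 to 1981 in control livers, with Cnn1, Lmod1 and Synpo2 above background nowhere. Most of that sum was Mylk alone, at 1375 to 1797 in ethanol livers and 1036 to 1535 in control livers.

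Endothelial markers, 13 of 15, summed to 11169 to 13424 in ethanol livers and 10941 to 15234 in control livers. Of the 15 tested, 0 were higher and 2 lower at an unadjusted p under 0.05, Lyve1 (-0.39) and Flt4 (-0.24). Macrophage markers, 11 of 13, summed to 6822 to 11325 in ethanol livers and 7354 to 8349 in control livers, and hepatocyte markers, 8 of 8, to 252004 to 265848 in ethanol livers and 215218 to 253073 in control livers. After normalization, the 8 hepatocyte genes differed by -0.17 to 0.08 (median 0.03). Of these, 0 were higher and 0 lower at an unadjusted p under 0.05. All 11 tested macrophage genes had a positive difference (median 0.17), and 3 were higher and 0 lower at an unadjusted p under 0.05, with the shares over all genes as given above. The part of these cell types in the differences of the members was not tested.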

How the data were processed

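The values used were the deposited intensities of 45281 probes on 7 arrays, linear values from which a background had already been subtracted by the authors, since some were below 0. Per the submitters' processing notes the software was GenomeStudio, whose version and normalization are not given in the sources used here. A second deposited table held 14 per-sample columns whose names match no label, and these were not used. Per the labels' protocols, biotinylated cRNA was made from total RNA with an RNA integrity number of at least 9. The treatment label was the same on all samples, so each group came from the sample title.

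Probe genes came from the platform annotation: 34885 probes had 1 gene symbol, 18 had several and 10378 none, and 34807 were updated through the Entrez ID. Sequences came from RefSeq, build GRCm38.p6. In R 4.3.3 with limma 3.58.1, intensities were corrected with normexp (offset 50), quantile normalized on the log2 scale and fitted with lmFit and eBayes. A probe was tested where 3 or more arrays had it above their median. Alternatives changed the filter on dim probes, the background correction, the offset, the normalization, the variance model, array weights, a replicate block, the probe rule, and left out each array in turn. The steps were tested on simulated data. Precision is limited by the 7 arrays, and intervals are 95% intervals of the moderated statistic.

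Every member is named. Values on each array are given for members with an unadjusted p under 0.05, for members whose groups do not overlap, and for a fixed list of 20 members of known role. For each other pathway list, the 3 tested genes with the smallest p are named, and Ccn2 is named in addition. Members and lists were chosen with earlier results of these data known.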

Additional observations from a re-analysis of the deposited data

How the results depend on the processing

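No member passed an adjusted p of 0.05 under any of the 17 alternatives, and of 525 values for the 31 members with a value, 22 had the other sign, in 10 members. The member median stayed between -0.13 and -0.06. Signal near background and the number of animals limit the precision.

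The 5 probes past the threshold became 8 with no filter on dim probes, 0 with probes above background only, 11 with no background correction, 3 with offset 16, and 1 with trended robust variances. Leaving out 1 array gave 0 to 27, with 27 without ethanol 1 and 3 or fewer without any other array. Of members with an unadjusted p under 0.05, leaving out 1 array gave 1 to 3 higher and 3 to 5 lower in ethanol livers (3.00 to 5.45% and 3.44 to 5.44% of all genes). Of members whose groups do not overlap, it gave 2 to 4 higher (4 without ethanol 1 or ethanol 2) and 5 to 8 lower (8 without control 3 or ethanol 1). With fewer arrays groups overlap less often in any gene: of all genes, 5.88 to 10.1% were then higher and 6.67 to 10.1% lower without overlap. The higher ones numbered 1 with probes above background only (4.88% of all genes in that setting). The lower ones numbered 3 with no quantile step (3.85% of all genes in that setting). The cause of these moves was not tested.

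Some differences near 0 turned. Fbln1 was 0.0045 with no background correction, Col1a1 was 0.013 with no quantile step, and over the median of all tested probes Col6a1 was -0.038 and Ecm1 was 0.018. Without 1 array, the ranges were -0.028 to 0.12 for Timp2, -0.11 to 0.12 for Loxl1, -0.13 to 0.14 for Fbln1, -0.097 to 0.037 for Des, -0.11 to 0.14 for Col6a1, -0.068 to 0.059 for Col1a1, -0.053 to 0.16 for Timp1, -0.18 to 0.057 for Col14a1 and -0.062 to 0.12 for Col4a1.

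Same-numbered ethanol and control samples correlated at -0.19, 0.09 and 0.20 in their deviations from the group means, so the numbers were not taken to pair samples. With a replicate block, 24 probes passed, 0 members were higher and 7 lower at an unadjusted p under 0.05 (4.09% and 5.11% of all genes), and Col1a1 was 0.023, Timp1 -0.053 and Loxl1 -0.040.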

Other observations

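Control 2 was the highest of the 7 arrays for 9 of the 24 members above background on all of them (37.5%, against 11.7% of all genes), and ethanol 2 was the lowest for 8 (33.3%, against 15.1%). Col4a1, Col5a1, Col6a1, Col14a1, Pdgfra, Reln, Colec11 and Ecm1 were the members lowest in ethanol 2. These arrays were singled out after the values were seen.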
